A study of Mus musculus with 3 samples.

Results

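The BCL2 family decides whether a cell commits to death at its mitochondria, and 10 of its genes were followed in the open chromatin of leukemic mouse B-cell precursors. They were 3 survival genes (*Bcl2*, *Bcl2l1* and *Mcl1*), 5 genes of BH3-only proteins (*Bcl2l11*, *Pmaip1*, *Bbc3*, *Bid* and *Bmf*) and both effectors, *Bax* and *Bak1*. They were chosen by name among the 22028 protein-coding genes of the annotation. Every ATAC-seq peak that overlapped one of the gene bodies, extended by 20 kb on both sides, was taken. Merging these peaks over the lists gave 77 open regions, of 50965 in the whole data set.

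The cells were pre/pro-B-cell lines, made by transducing mouse bone marrow with a retrovirus that carries BCR-ABL(p185), the fusion kinase of a form of acute lymphoblastic leukemia. All lines carry this oncogene. They differ in *Cdk6*, which encodes a kinase of the cell cycle that also acts at chromatin: *Cdk6*+/+ lines (WT) express the wildtype protein, and *Cdk6*KM/KM lines (K43M) express a kinase-inactive protein from both alleles. There were 2 lines per genotype with 1 library each, so the spread between lines includes whatever each line acquired during transformation and culture. The list called WT unnumbered has no sample label of its own and was placed in the WT group from the series' design text.

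The lists held between 33038 and 39038 peaks, with the most in K43M replicate 1. Peak lists give no read totals, and the recovered background was 65.3 and 56.7 read ends per 10 kb in the WT lists and 55.1 and 48.4 in the K43M lists. Promoter peaks of B-cell precursor genes were present in all 4 lists for 7 of 9 markers, and *Cd79b* and *Rag1* lacked one in K43M replicate 2 only. None of 3 erythroid markers had a promoter peak. Of 4 T-cell markers only *Lck* had one, in all lists, and of 4 myeloid markers only *Lyz2*, in both WT lists and no K43M list. Of 4 markers of other tissues, *Alb* and *Myh6* had none, *Col1a1* had one in all lists and *Epcam* one in both K43M lists only.

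In healthy cells the survival proteins hold the effectors and the BH3-only proteins in check. Stress signals raise BH3-only proteins, which bind the survival proteins or activate BAX and BAK, and these then open pores in the outer mitochondrial membrane. Precursor B cells and B-cell leukemias are known to rely on this balance, and BCR-ABL kinase signalling is known to favour survival through STAT5 and *Bcl2l1*.

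All 10 promoters were open in both genotypes. A promoter was the stretch from 2000 bp before to 200 bp after any annotated transcript start, and each of the 10 genes had a promoter peak in all 4 lists, against 47.5% of protein-coding genes. This count stayed at 10 with a stricter peak threshold, with equal numbers of peaks per list, with promoters of 500 bp on either side and without any single list. The levels of the promoters were compared by fold enrichment, the ratio of the summit signal to the local background of the same library. Before this division 1 was added to both. *Bax*, *Mcl1* and *Bcl2l1* had the highest means over the 4 lists, 10.5 ± 0.483, 10.4 ± 0.543 and 10.2 ± 0.559 (SD, n = 4), and did not differ beyond this spread. *Bid* followed at 9.08 ± 1.37 and *Pmaip1* at 8.32 ± 3.02, the widest spread of the 10 (SD, n = 4). The *Pmaip1* mean describes neither genotype, since it was 5.71 in WT and 10.9 in K43M lists, above only *Bak1* in the first and above all others in the second. *Bcl2*, *Bmf* and *Bcl2l11* lay together at 7.40 ± 0.602, 7.36 ± 1.56 and 7.31 ± 0.578 (SD, n = 4). *Bbc3* and *Bak1* were lowest, at 5.60 ± 1.15 and 5.19 ± 0.613 (SD, n = 4), and lay within 1 SD of each other. This order holds for the ratio only, since the local background differed between genes. The read ends stacked at the summit were 40, 38, 36 and 40 at *Bax*, fewer than the 43, 51, 51 and 56 at *Bbc3*. The local background in the same lists was 2.98, 2.84, 2.6 and 2.66 at *Bax* and 7.32, 6.36, 11.1 and 8.92 at *Bbc3*. A difference in fold enrichment cannot separate a larger share of cells with an open site from a wider opening in each cell.

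**Figure D1:**
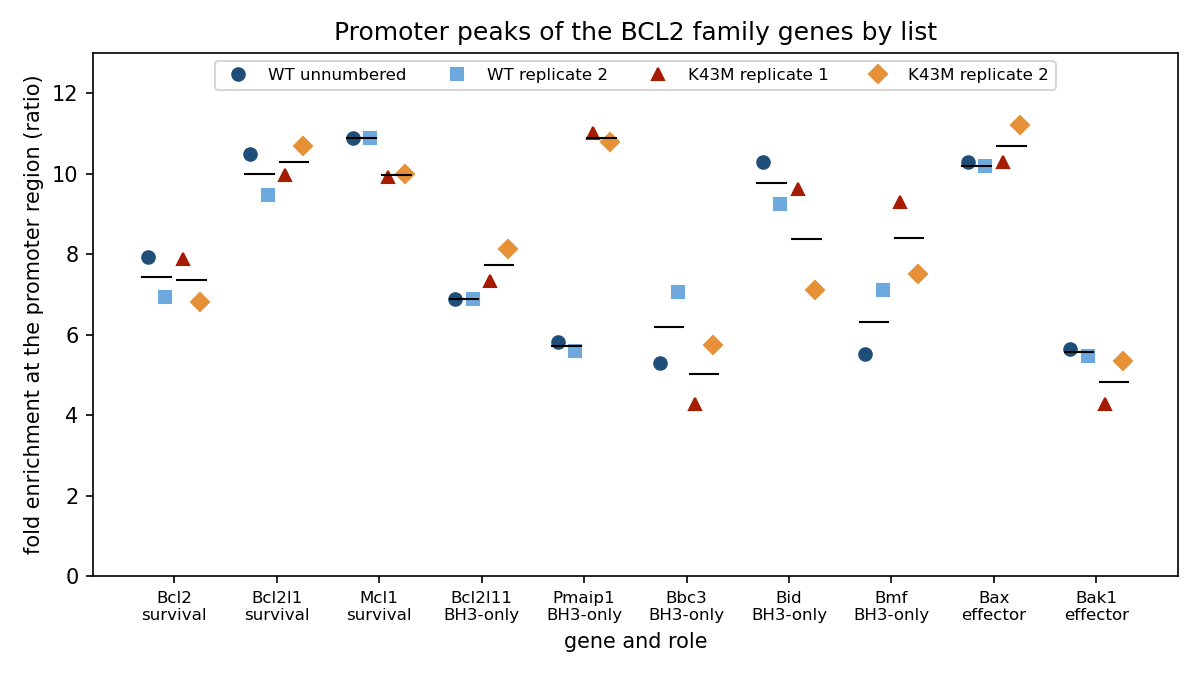
Fold enrichment (ratio, linear axis) at the promoter region with the highest mean of each gene, 1 point per list and a black line at the mean of each genotype (n = 2). The K43M points of *Pmaip1*, 11 and 10.8, lie well above its WT points, 5.83 and 5.59, while most other genes overlap or nearly overlap between genotypes.

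Over the whole windows the lists agreed less than at the promoters. Of the 77 regions, promoters included, 42 (54.5%) had a peak in all 4 lists, against 41.2% of all merged regions. Both K43M lists and no WT list had a peak at 9 regions (11.7%, against 7.64% of all regions), and both WT lists and no K43M list at 1 region (1.3%, against 4.51%). The remaining 25 were mixed, and 14 regions had a peak in a single list. None of the genotype-only regions lay at a promoter of the 10 genes. Of the 15 promoter regions, 13 had a peak in all lists and the others, at secondary starts of *Bbc3* and *Bid*, had a peak in 1 list. Of 19 upstream and 14 downstream regions, 11 and 6 were in all lists. Of 26 intronic regions, 11 were in all lists and 5 were K43M-only, and all 5 lay in *Bcl2*. The share of K43M-only regions among all intronic regions is not given here.

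The number of peaks in the windows was 58 and 54 in WT unnumbered and WT replicate 2, and 70 and 61 in K43M replicates 1 and 2. Both K43M lists thus had more than both WT lists, by a mean of 9.5 peaks (two-sided exact permutation p = 0.333, the smallest that 4 lists allow). Per 1000 peaks of the list the numbers were 1.76, 1.58, 1.79 and 1.76 in the same order, and the groups differed by less than their spread (exact permutation p = 0.667).

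**Figure D2:**
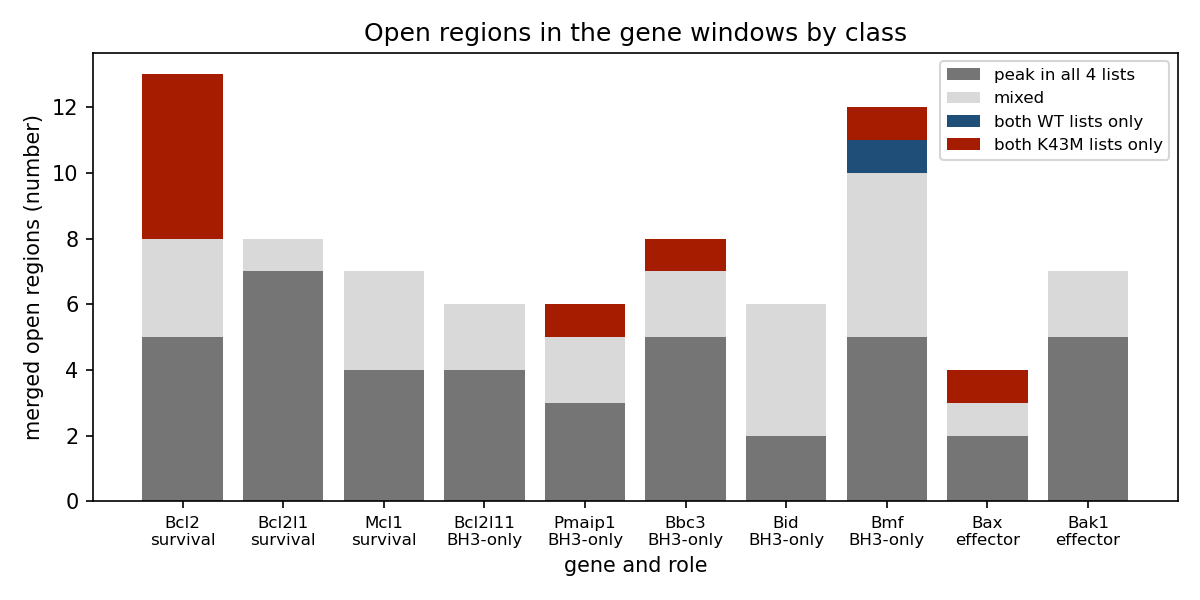
Number of merged open regions in the window of each gene, stacked by the lists that hold a peak there (mixed: any other combination of lists). *Bcl2* has 13 regions, 5 of them K43M-only, and *Bmf* holds the single WT-only region.

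At the 42 shared regions, where every list had a peak, the strength of the peaks could be compared between genotypes. The test was limma on the log2 fold enrichment, centred on the median of each list, with Benjamini-Hochberg adjustment over all 21012 such regions of the genome. No region of the genome passed an adjusted p of 0.05 in either direction (0% higher and 0% lower in K43M), and the smallest adjusted p was 0.127. At an unadjusted p under 0.05, 6.39% of all regions were higher and 6.03% lower in K43M. Of the member regions, 4 were higher and 1 lower at this level. The 42 differences had a median of -0.06, against 0.00 for all regions, and a median size of 0.22, against 0.15. The lists of one genotype lay entirely above those of the other at 11 regions in the K43M direction and at 10 in the WT direction (26.2% and 23.8%, against 21.3% and 21% of all regions). The paragraphs that follow therefore describe values, and no difference in them passed the test unless an alternative is named.

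**Figure D3:**
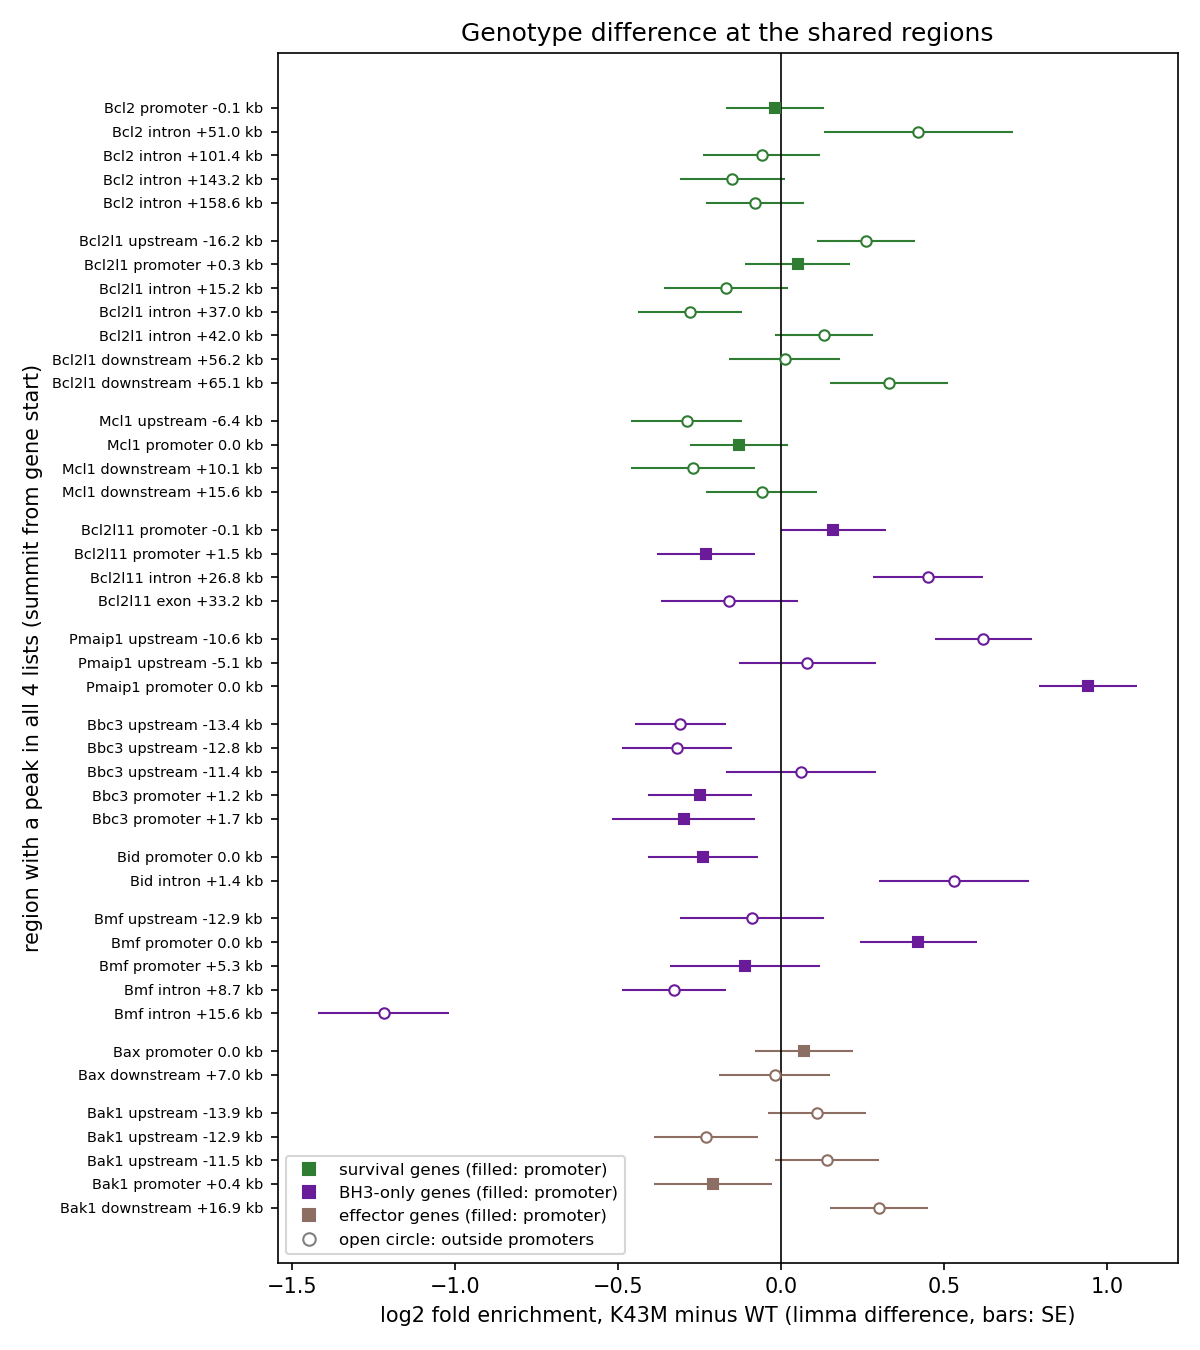
Difference in log2 fold enrichment, K43M minus WT, at the 42 shared regions, with the limma standard error. Regions are ordered by role, gene and distance of the summit from the gene start, and "promoter" stands for the gene's own promoter. The *Pmaip1* promoter, at 0.94, and an intron of *Bmf*, at -1.22, lie farthest from 0.

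*Bcl2*, the founding survival gene of the family, is on the minus strand of chromosome 1 and spans 176097 bp, most of it a single long intron. Its promoter region (mm10 chr1:106713655-106714989) had a fold enrichment of 7.94 and 6.94 in WT unnumbered and WT replicate 2, and of 7.89 and 6.82 in K43M replicates 1 and 2. The groups overlapped almost fully (log2 difference -0.02, SE 0.15, limma adjusted p = 0.982). The strongest intronic region, 158601 bp into the gene, had 10.1, 9.47, 9.85 and 8.72 in the same order, above the promoter in every list. The genotypes overlapped there too (log2 difference -0.08, SE 0.15, limma adjusted p = 0.901).

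The *Bcl2* body also held 5 of the 9 K43M-only regions, 38.5% of its 13 regions. They were spread over the gene, with summits 18302, 107227, 111525, 132233 and 161218 bp after the start. Their fold enrichments in K43M replicates 1 and 2 were 6.09 and 4.95, 7.80 and 5.39, 4.37 and 4.55, 8.64 and 5.45, and 4.05 and 4.41. These were weak to moderate peaks, between percentiles 5.43 and 53.8 of their lists by -log10 q. At 3 of the 5 both K43M peaks reached a -log10 q of 5. A missing WT peak says that no signal passed the threshold of the caller, not that the site was closed. The region at 107227 bp also lies at an annotated start of *Gm37053*. The bases around its summit are shown because they hold the only STAT match among the 5, with capitals for the match to TTCNNNGAA. The match began 12 bp before the summit. This motif was found within the same 300 bp in 7.17% of all regions at promoters and in 11.6% of those outside promoters. It was not particular to the K43M-only regions. A *Bcl2* intronic region in all lists, 101398 bp after the start, also held it, as did intronic regions of *Bcl2l1* in all lists.

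*Bcl2* intron, K43M-only (mm10 chr1:106606897-106607196, plus strand):
Bcl2 K43M-only region: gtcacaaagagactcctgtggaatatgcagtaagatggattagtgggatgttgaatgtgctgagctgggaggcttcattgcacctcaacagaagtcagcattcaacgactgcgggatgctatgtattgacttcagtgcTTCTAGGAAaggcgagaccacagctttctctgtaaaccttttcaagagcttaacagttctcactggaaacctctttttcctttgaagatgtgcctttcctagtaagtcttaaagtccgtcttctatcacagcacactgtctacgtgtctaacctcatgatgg

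*Bcl2l1*, which encodes BCL-XL, had 8 regions, of which 7 were in all lists. Its promoter gave 10.5, 9.47, 9.96 and 10.7 in WT unnumbered, WT replicate 2 and K43M replicates 1 and 2, and the genotypes overlapped (log2 difference 0.05, SE 0.16, limma adjusted p = 0.947). Its strongest intronic region, 15246 bp after the start, gave 9.41, 10.2, 7.69 and 9.85, and overlapped as well (log2 difference -0.17, SE 0.19, limma adjusted p = 0.795). The region with the highest values in this window, 12.5, 13.8, 17.0 and 14.5, lay at the promoter of the neighbour *Tpx2*.

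*Mcl1*, a survival gene whose protein turns over quickly, had 7 regions and no genotype-only one. Its promoter gave 10.9 in both WT lists and 9.93 and 10.0 in K43M replicates 1 and 2. The K43M values were lower in both lists, but the difference was small (log2 difference -0.13, SE 0.15, 95% interval -0.46 to 0.21, limma adjusted p = 0.807). All 3 other shared regions, 6359 bp before and 10052 and 15565 bp after the start, also had negative differences, of -0.29, -0.27 and -0.06. None of them had a limma adjusted p under 0.05.

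Of the BH3-only genes, *Bcl2l11* encodes BIM, a main driver of death in lymphocytes deprived of survival signals. It had 2 promoter regions, at different transcript starts. The region at the first start gave 6.89 in both WT lists and 7.33 and 8.12 in the K43M lists (log2 difference 0.16, SE 0.16, limma adjusted p = 0.752). The other, 1474 bp further in, gave 7.47 and 8.23 in the WT lists and 6.72 and 6.68 in the K43M lists (log2 difference -0.23, SE 0.15, limma adjusted p = 0.616). The groups did not overlap at either, in opposite directions by fold enrichment. By the recovered summit pileup, the number of read ends stacked at the summit, both differences were positive, 0.46 and 0.09. The first promoter is printed with matches to CCAATCA or CCAATGA (NFY, here on the minus strand) and GGGGCGGGG (SP1) in capitals. It was chosen because both matches began within 13 bp of the summit. The NFY and SP1 motifs were found in 12.9% and 17.9% of all promoter regions.

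*Bcl2l11* promoter, in all lists (mm10 chr2:128125828-128126127, plus strand):
Bcl2l11 promoter: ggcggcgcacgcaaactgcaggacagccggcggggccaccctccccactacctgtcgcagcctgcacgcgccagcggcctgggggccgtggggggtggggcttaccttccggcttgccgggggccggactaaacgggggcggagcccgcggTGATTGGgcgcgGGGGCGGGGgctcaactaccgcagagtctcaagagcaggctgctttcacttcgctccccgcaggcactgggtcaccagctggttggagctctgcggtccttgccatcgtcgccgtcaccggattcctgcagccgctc

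An intron of *Bcl2l11*, 26752 bp after the start (mm10 chr2:128152534-128153115), gave 5.43 and 6.72 in the WT lists and 8.09 and 8.42 in the K43M lists. Both K43M lists were above both WT lists (log2 difference 0.45, SE 0.17, 1.37-fold, limma adjusted p = 0.333). Without WT unnumbered the difference was 0.27. The recovered summit pileups were 14, 15, 44 and 31. With the pileup in place of fold enrichment the log2 difference was 1.40 (limma adjusted p = 0.0472), and it passed. The local background moved with it, at 1.76 and 1.38 in the WT lists and 4.56 and 2.80 in the K43M lists. Fold enrichment divides by this background, with the constant given above added to it, and the pileup does not. That constant weighs more where the background is low. By the pileup 0.662% of all regions were called higher and 0.338% lower in K43M, and of the member regions 2 were called, both higher.

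*Bbc3* encodes the p53-induced BH3-only protein PUMA. Its peaks lay not at the outermost start but at later starts, 1163 and 1746 bp into the gene. The first gave 4.85, 5.27, 4.10 and 4.38, with both K43M lists below both WT lists (log2 difference -0.25, SE 0.16, limma adjusted p = 0.574). The other gave 5.29, 7.07, 4.29 and 5.75 and overlapped (log2 difference -0.30, SE 0.22, limma adjusted p = 0.666). By the recovered pileup both turned positive, to 0.32 and 0.29, and the local background at the first was 7.24 and 6.40 in the WT lists and 11 and 8.82 in the K43M lists. Regions 13377 and 12761 bp upstream had differences of -0.31 and -0.32 and another, 11389 bp upstream, of 0.06, and none passed. The K43M-only region of this window, 8548 bp upstream, gave 5.09 and 3.68. The first promoter region is printed because it held 3 matches to GGGGCGGGG or its reverse complement, shown in capitals, the most of any member promoter.

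*Bbc3* promoter, in all lists (mm10 chr7:16309406-16309705, plus strand):
Bbc3 promoter: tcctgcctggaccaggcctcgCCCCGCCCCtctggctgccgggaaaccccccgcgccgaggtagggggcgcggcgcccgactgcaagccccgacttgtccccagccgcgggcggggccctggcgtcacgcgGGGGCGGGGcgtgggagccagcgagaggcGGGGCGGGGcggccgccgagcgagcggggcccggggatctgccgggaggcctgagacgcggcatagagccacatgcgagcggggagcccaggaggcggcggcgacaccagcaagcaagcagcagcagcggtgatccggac

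*Bmf*, whose protein binds survival proteins when cells detach or lose growth signals, held the region that differed most. In an intron 15555 bp after the start (mm10 chr2:118533944-118534419) the fold enrichment was 12.4 and 8.86 in WT unnumbered and WT replicate 2, and 4.28 and 4.70 in K43M replicates 1 and 2. The lowest WT list was far above the highest K43M list. The log2 difference was -1.22 (SE 0.20, 95% interval -1.67 to -0.77), a ratio of 0.429, and only 9 of the 21012 regions differed by as much in either direction. It did not pass across the genome (limma adjusted p = 0.133).

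The pileups at this *Bmf* intron were 50, 30, 15 and 13, while the local background was similar in the lists, 3.12, 2.50, 2.74 and 1.98. By -log10 q the peak stood at percentiles 83.1 and 66.2 of the WT lists and at 12.5 and 14.7 of the K43M lists. Under the alternatives the adjusted p ranged up to 0.373, and without WT replicate 2 the difference was -1.47 and passed (limma adjusted p = 0.00918). In that fit, where the remaining WT list is assumed to vary like the K43M lists, 0.187% of regions were called lower in K43M. Without WT unnumbered, the list that has no label, the difference was -1.01 (limma adjusted p = 0.0574). The bases around the summit are printed because a match to TGTTTAC, the FOXO motif, began 5 bp from the summit on the minus strand, as GTAAACA in capitals. This motif was found in 4.71% of all regions outside promoters. It was not particular to this intron. In the *Bmf* window the K43M-only region, 30909 bp after the start, also held it, as did a mixed region 29412 bp after the start.

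*Bmf* intron, in all lists and strongest in WT (mm10 chr2:118533982-118534281, plus strand):
Bmf intron: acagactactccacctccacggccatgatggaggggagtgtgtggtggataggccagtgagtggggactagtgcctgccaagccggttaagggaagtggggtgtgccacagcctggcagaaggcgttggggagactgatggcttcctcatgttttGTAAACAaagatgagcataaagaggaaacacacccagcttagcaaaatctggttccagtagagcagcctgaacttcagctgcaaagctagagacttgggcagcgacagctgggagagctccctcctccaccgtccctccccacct

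Of the 4 other shared regions of the *Bmf* window, 3 had negative differences as well. The other intronic one, 8689 bp after the start, gave 7.93 and 6.84 in the WT lists and 5.68 and 6.06 in the K43M lists, with no overlap (log2 difference -0.33, SE 0.16, limma adjusted p = 0.468). The promoter went the other way and gave 5.52 and 7.12 in the WT lists and 9.31 and 7.50 in the K43M lists, so both K43M values were higher (log2 difference 0.42, SE 0.18, limma adjusted p = 0.397, and 0.21 without WT unnumbered). A promoter region at a later start, 5308 bp in, gave 5.03, 6, 6.72 and 3.85 and overlapped (log2 difference -0.11, SE 0.23), as did a region 12915 bp upstream (-0.09, SE 0.22). A WT-only region 4922 bp upstream gave 4.44 and 4.52, and a K43M-only region 30909 bp after the start, beyond the gene end, gave 6.12 and 5.41.

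*Bid*, whose protein links death receptors to mitochondria, had its main promoter region in all lists at 10.3, 9.25, 9.62 and 7.12. The genotypes overlapped (log2 difference -0.24, SE 0.17, limma adjusted p = 0.646). An intronic region 1424 bp after the start gave 3.34, 5.29, 5.64 and 6.52, with both K43M lists above both WT lists but a spread between the WT lists larger than the gap (log2 difference 0.53, SE 0.23, limma adjusted p = 0.411). The difference was 0.17 without WT unnumbered and 0.85 without WT replicate 2. Both regions also lie at annotated starts of *Gm44260*. Of the 6 regions of *Bid*, 3 had a peak in a single list.

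*Pmaip1* encodes NOXA, a BH3-only protein that binds MCL1 and is induced by p53. Its promoter region (mm10 chr18:66458176-66459009) had a fold enrichment of 5.83 and 5.59 in WT unnumbered and WT replicate 2, and of 11 and 10.8 in K43M replicates 1 and 2. The lists of each genotype agreed closely and the genotypes were far apart. The log2 difference was 0.94 (SE 0.15, 95% interval 0.60 to 1.27), or 1.92-fold, and 77 of the 21012 regions (0.366%) differed by as much in either direction. It did not pass across the genome (limma adjusted p = 0.133).

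The summit pileups at the *Pmaip1* promoter were 18 and 16 in the WT lists and 56 and 36 in the K43M lists. The local background was also higher in both K43M lists, at 4.16 and 2.42, than in the WT lists, at 2.26 and 2.04. Fold enrichment divides by this background plus 1 and the pileup does not. The peak stood at percentiles 32.9 and 31.4 of the WT lists and at 86.1 and 79.7 of the K43M lists by -log10 q. With the recovered pileup the log2 difference was 1.46 and passed (limma adjusted p = 0.0472). Over its alternatives the adjusted p reached 0.373, and without the unlabelled WT list the difference remained 0.94 (limma adjusted p = 0.0653). The promoter window held 1 SP1 match and 1 match to the p53 site with at most 2 mismatches, which was found in 0.903% of all promoter regions.

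The other regions of the *Pmaip1* window varied. A region 10598 bp upstream gave 5.43, 4.92, 8.58 and 7.38 in WT unnumbered, WT replicate 2 and K43M replicates 1 and 2, with no overlap (log2 difference 0.62, SE 0.15, limma adjusted p = 0.174). One 5098 bp upstream gave 6.54, 6.99, 6.03 and 8.50 and overlapped (log2 difference 0.08, SE 0.21). A region 19819 bp after the start was K43M-only, at 6.66 and 8.11, and both remaining regions had a peak in 1 list each, 1 of either genotype. The whole of chromosome 18 differed in background between the genotypes: the median local background at shared regions, as log2 against the autosomes, was 0.24 and 0.28 in the WT lists and -0.16 and -0.20 in the K43M lists. The background at the *Pmaip1* promoter itself went the other way and was higher in both K43M lists. The median centred log2 fold enrichment of chromosome 18 was between -0.02 and 0.02 in every list. With centring by chromosome the *Pmaip1* promoter difference was 0.92 (limma adjusted p = 0.137).

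**Figure D4:**
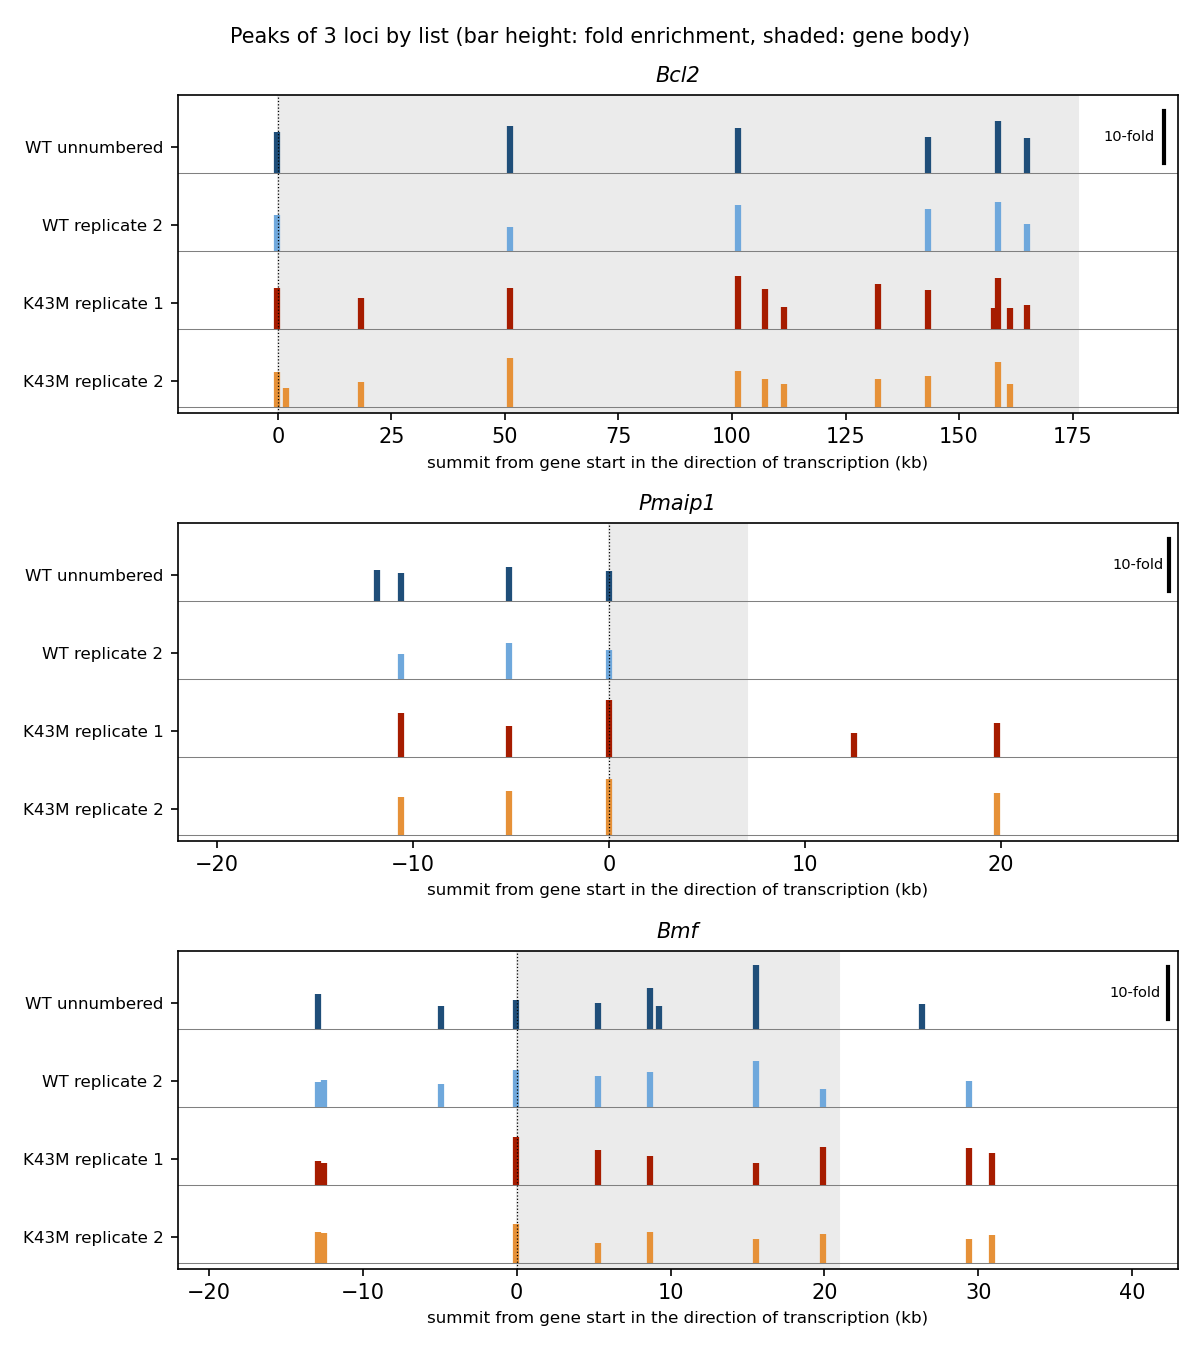
Peaks at *Bcl2*, *Pmaip1* and *Bmf* in each list, drawn at the distance of the summit from the gene start in kb, with bar height proportional to fold enrichment (scale bar: 10-fold) and the gene body shaded. Both K43M lists show 5 intronic peaks in *Bcl2* that neither WT list holds, 38.5% of its regions against 7.64% of all regions. The K43M lists also show a taller *Pmaip1* promoter peak, and the WT lists a taller *Bmf* peak 15555 bp after the start.

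Of the effectors, *Bak1* had the lowest mean promoter fold enrichment in both genotypes. It gave 5.64, 5.48, 4.29 and 5.35 in WT unnumbered, WT replicate 2 and K43M replicates 1 and 2. Both K43M values were below both WT values before centring, and the groups overlapped after it (log2 difference -0.21, SE 0.18, limma adjusted p = 0.713). The region also lies at a start of *Ggnbp1*, which shares this promoter. *Bak1* had 7 regions, of which 5 were in all lists and none in only 1 genotype.

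*Bax*, among the 3 genes with the highest mean promoter fold enrichment, gave 10.3 and 10.2 in the WT lists and 10.3 and 11.2 in the K43M lists. The genotypes overlapped (log2 difference 0.07, SE 0.15, 95% interval -0.29 to 0.43, limma adjusted p = 0.915). The *Bax* window held only 4 regions. One of them, 6965 bp after the start, lay at the promoter of the neighbour *Ftl1*, and the K43M-only one, 14647 bp upstream with 6.31 and 6.61, at starts of *Dhdh* and *Tulp2*. The *Bax* promoter is printed because it combined the most motifs of the member promoters: 3 matches to CACGTG (E-box), 1 to GGGGCGGGG (SP1) and 1 to the NRF-1 site with at most 1 mismatch, all in capitals. E-box and NRF-1 matches were found in 9.30% and 10.1% of all promoter regions.

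*Bax* promoter, in all lists (mm10 chr7:45466716-45467015, plus strand):
Bax promoter: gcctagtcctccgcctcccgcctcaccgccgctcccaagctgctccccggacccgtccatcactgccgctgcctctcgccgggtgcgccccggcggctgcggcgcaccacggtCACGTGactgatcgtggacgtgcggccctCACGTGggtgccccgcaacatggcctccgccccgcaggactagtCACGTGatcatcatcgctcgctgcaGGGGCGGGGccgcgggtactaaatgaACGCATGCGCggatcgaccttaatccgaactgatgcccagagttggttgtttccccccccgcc

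SP1 was the motif that the member promoters shared most. Of 21 regions at promoters in the windows, neighbours' promoters included, 8 held it, against 17.9% of 16824 promoter regions. These 8 belong to *Bcl2*, *Bcl2l11*, *Pmaip1*, *Bbc3*, *Bid*, *Bmf* and *Bax*, and all had a peak in every list. The 21 windows had a median of 63% G and C against 60.7%, and a median CpG observed to expected ratio of 0.717 against 0.698. The 13 own promoter regions in all lists, which held all 8 of the SP1 regions, were richer, with medians of 70% and 0.833. The letters of the SP1 motif are all G and C, so both measures share base composition. An ETS match (CCGGAAGT) was found in 1 of the 21 windows, at the *Tpx2* promoter, against 6.22% of promoter regions. Motif matches are descriptions of the reference sequence and were given no test.

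Promoters of other genes of the pathway were also mostly open in both genotypes. Of 41 further genes of the BCL2 family, the caspases and apoptosome, the inhibitors of apoptosis, the death receptors and the mitochondria, 31 had a promoter peak in all lists, 4 in some and 6 in none. None had one in both lists of a single genotype only. All 10 genes of the apoptosome and caspase group and all 5 inhibitors of apoptosis were open in every list, and 5 of 7 genes of the death receptor branch. The 4 mixed genes were all BCL2 relatives, *Bcl2a1b*, *Bcl2a1d*, *Hrk* and *Bcl2l14*, named after their values were seen.

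Of the 31 promoters in all lists, 0 were called by limma, 21 were higher and 10 lower in K43M, and the differences ran from -0.17 to 0.63 with a median of 0.05. The lists did not overlap at 6 of them, all with K43M higher (19.4%, against the 21.3% of all regions given above). The WT lists were entirely higher at 0 of the 31, against 21% of all regions. All shared regions of the genome split nearly evenly, with 10556 higher and 10456 lower in K43M. These contrasts with the genome were not tested. At an unadjusted p under 0.05 there were 2, both higher in K43M, a share near the 6.39% of all regions. They are named after their values were seen. *Casp6*, an executioner caspase, gave 9.79, 5.93, 13.4 and 10.3 (log2 difference 0.63, SE 0.24, limma adjusted p = 0.341). *Bcl2l13*, a mitochondrial relative of *Bcl2*, gave 8.92, 9.63, 12.2 and 13 (log2 difference 0.44, SE 0.16, limma adjusted p = 0.307).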

How the data were processed

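ATAC-seq libraries of 4 lines were used as 1 narrow peak list each. Per the labels, the authors used Trimmomatic 0.36 for trimming, BWA 0.7.15 for mapping to mm10 and MACS2 2.1.0 for peaks of each library, after removal of blacklisted regions and poorly mapped reads. Each read end was shifted by -100 bp and extended to 200 bp. The deposited fold enrichment is the authors' ratio of the summit pileup to the local background, with 1 added to both. For each peak the authors also deposited its -log10 p and its -log10 q, computed within 1 library. No control was named.

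Groups came from the labels for 3 libraries and from the series' design text for the list without one. Peaks of the 4 lists were merged at 1 bp of overlap, and a region took the highest fold enrichment of each list. Genes and promoters came from GENCODE mouse release 21, on the build of the lists. Pileup and background were recovered from fold enrichment and -log10 p for 100% of the peaks. Fold enrichments were compared with limma 3.58.1 in R 4.3.3 as described, and peak counts by exact permutation. With 2 lines per genotype, p-values measure the spread between these lines only. Motifs were searched on both strands in the GRCm38.p6 sequence within 150 bp of the highest summit, and in the sequences printed no matches overlapped. No sequence is printed for *Pmaip1*. Some regions are not reported one by one here.

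For each gene the strongest promoter region, the strongest other region inside the gene, called regions and genotype-only regions were described, with others where they complete a locus. The genes, the lists and these rules were chosen with earlier results of these data known. The alternatives changed the peaks used, the lists included, the overlap, the window, the promoter definition, the measure, the centring and the variance model. Code was tested on simulated data and run in Python 3.11.15 (pandas 2.3.3, numpy 2.4.6, scipy 1.17.1, matplotlib 3.10.9, pysam 0.24.0). Expression and CDK6 binding were not analysed here.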

Additional observations from a re-analysis of the deposited data

How the results depend on the processing

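Each value was recomputed under the alternatives. The 10 members kept a promoter peak in all lists under every one of them, and the number of regions in all lists stayed within 1.5 times of 42, at 28 to 45. WT-only regions, 1 in the main analysis, were 2 with a -log10 q of at least 5 and 2 to 7 when single lists were left out (7 without WT replicate 2, 3 without K43M replicate 1). K43M-only regions, 9 in the main analysis, were 5 in windows of 5 kb and 10 to 16 when single lists were left out (16 without K43M replicate 2). The shares of all regions moved with them: without K43M replicate 2, 20.8% of the member regions and 19.5% of all regions were K43M-only, without K43M replicate 1 14.1% and 15.6%, and without WT replicate 2 9.09% and 11.4% were WT-only. The excess of peaks in the K43M lists kept its direction and ranged from 3 to 14, from 5.0 to 14.0 when single lists were left out. Per 1000 peaks it turned in windows of 5 kb, with means of 1.12 in WT and 1.10 in K43M. The number of member regions called was 2 higher in K43M with the recovered pileup (*Pmaip1* promoter and *Bcl2l11* intron). It was 0 to 1 lower when single lists were left out, where the call was the *Bmf* intron without WT replicate 2. Both counts were 0 under all other alternatives, centring by chromosome, which was added after the data were seen, included. By the pileup 10 of the 42 shared member regions had the opposite direction, 7 of them higher in K43M by pileup and lower by fold enrichment. Over all regions the calls numbered 139 higher and 71 lower with the pileup, 13 and 10 with a variance trend, 88 and 13 without WT unnumbered, and 116 and 42 without WT replicate 2.

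Of 194 alternative values of the 15 regions named by the rule, 14 had the opposite direction, all at regions whose main difference was at most 0.30. With the recovered pileup these were the *Bcl2* intron (0.35), the *Bcl2l1* promoter (-0.03) and intron (0.18) and the *Bbc3* promoter (0.29). With within-list percentiles, in percentile points, they were the *Bcl2* intron (4.42), the *Bcl2l1* promoter (-1.59) and the *Bcl2l1* intron (0.40). Without single lists they were values of the *Bcl2* promoter (range -0.12 to 0.06), the *Bcl2l1* promoter (-0.05 to 0.15), the *Bcl2l1* intron (-0.40 to 0.06), the *Bax* promoter (-0.04 to 0.19) and the *Bak1* promoter (-0.42 to 0.00). The cause was not tested. With equal numbers of peaks per list the *Bmf* intron lost a peak and gave no value. No paired analysis was possible because the genotypes share fewer than 2 replicate numbers.

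Depth limits what a missing peak says: a site below the threshold of the caller gives no peak, and the lists carry no read totals. With 2 lines per genotype an exact test of a single region cannot go below 0.333. Differences of 0.94 (SE 0.15) and -1.22 (SE 0.20) did not pass, so changes of this size could go uncalled here.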
